A study of Mus musculus with 18 samples.

Results

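Tex19.1, Tex13b, Dppa4 and Rhox2d are 4 of the 55416 genes in a count table of mouse brain tissue resected around brain metastases. They were picked because they were read in one tumour model and almost nowhere else, so their difference between the models is given as a description, with no test. All 4 passed the filter on low counts, and they could pass only through the breast model. The 18 libraries came from 18 brains, 6 for each of 3 mouse tumour lines, taken 10 days after injection of 40000 cells. Libraries 14 to 19 carried EO771-BrM3, a line derived from the EO771 mouse mammary carcinoma. Libraries 7 to 11 and 13 carried 482N1, a lung cancer line, and libraries 1 to 6 carried B16-F10-BrM4, which derives from the B16-F10 mouse melanoma. The host genotype is given as WT throughout, and each model rests on 1 cell line. No tumour-free brain and no cultured line was among the libraries, so whether tumour cells or host tissue made a transcript was not tested. In tissue of this kind, fewer cells of a type and less RNA per cell cannot be told apart.

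The 4 genes belong to a class that most adult body tissues keep silent. Many such genes are switched on in early embryos, the placenta or the germ line, and DNA methylation of their promoters, together with repressor complexes, holds them off elsewhere. Tex19.1 is a mammalian-specific gene of pluripotent cells, germ cells and placenta whose loss in mice releases retrotransposons and impairs spermatogenesis. Dppa4 encodes a nuclear DNA-binding protein of pluripotent cells that acts as a partner of Dppa2. Tex13b is an X-linked gene of the testis. Rhox2d encodes a homeobox protein of the reproductive homeobox cluster on the X chromosome, a family expressed mainly in testis, ovary, epididymis and placenta. Genes of this class that tumours express are often called cancer-testis genes.

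The promoters of 3 of the 4 are shown because DNA methylation acts on CpG dinucleotides, though no methylation was measured in these libraries. They come from RefSeq on build GRCm38.p6, from 250 bases before to 50 bases after the annotated start, 5′ to 3′, with CpG dinucleotides in capitals. That build differs from GRCm39, the one the submitters name, and no read position was placed on it. The sequences lie at chr11:121145893-121146192 on the plus strand (Tex19.1), chrX:140813384-140813683 on the minus strand (Tex13b) and chrX:37493160-37493459 on the plus strand (Rhox2d).
Tex19.1: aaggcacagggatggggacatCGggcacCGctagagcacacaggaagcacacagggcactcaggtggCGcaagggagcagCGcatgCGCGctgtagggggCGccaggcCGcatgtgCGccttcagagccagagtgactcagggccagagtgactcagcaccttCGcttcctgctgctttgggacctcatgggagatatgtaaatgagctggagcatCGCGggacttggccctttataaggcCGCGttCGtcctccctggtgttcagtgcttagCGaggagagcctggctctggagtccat
Tex13b: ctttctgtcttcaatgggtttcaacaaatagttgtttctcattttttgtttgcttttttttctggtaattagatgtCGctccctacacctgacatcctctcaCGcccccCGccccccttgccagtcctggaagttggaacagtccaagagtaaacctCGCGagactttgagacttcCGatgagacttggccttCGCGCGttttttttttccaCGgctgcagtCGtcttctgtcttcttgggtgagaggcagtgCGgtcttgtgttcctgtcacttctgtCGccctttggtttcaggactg
Rhox2d: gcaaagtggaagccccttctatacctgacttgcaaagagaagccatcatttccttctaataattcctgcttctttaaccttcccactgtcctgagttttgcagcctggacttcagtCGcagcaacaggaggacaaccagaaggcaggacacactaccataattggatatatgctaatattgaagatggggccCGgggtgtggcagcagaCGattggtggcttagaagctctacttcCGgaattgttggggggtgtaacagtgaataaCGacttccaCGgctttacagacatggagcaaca

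The 3 windows differed in CpG content. The Tex19.1 window held 16 CpGs, more than 67.0% of 32851 promoter windows of the same length, and the Tex13b window held 13, more than 62.1% of them. The Rhox2d window held 6, against a median of 7 over all windows. TCCCGC, a core of E2F sites searched on both strands, matched once in the Tex19.1 window, in none of the other 2, and in 19.98% of all windows. CACGTG, an E-box, matched in none of the 3 and in 7.15% of all windows. Windows of related genes read in the same libraries ranged from 0 CpGs for Rhox1 and Piwil4 to 17 for Sohlh2 and 19 for Tex101.

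All 4 genes were read in every EO771-BrM3 library and were at or near 0 in the other 12. Together they had 6737 reads in the EO771-BrM3 libraries, 0 in the 482N1 libraries and 3 in the B16-F10-BrM4 libraries. Every breast library stood above all 12 others for each of the 4, the pattern they were picked for, as it did for 4.33% of the 17174 genes tested. Levels are in CPM, the read count scaled for depth, here on library sizes adjusted by TMM (trimmed mean of M-values). Intervals and floors cover counting error only. A floor of 3 reads per library corresponds to 0.203 to 0.419 CPM.

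Tex19.1 was at 27.6, 26.1, 43.0, 42.8, 68.7 and 39.6 CPM in EO771-BrM3 libraries 14 to 19. It had no read in the 6 libraries of 482N1, and 1 read each in B16-F10-BrM4 libraries 3 and 6. Library 18 was the highest and libraries 14 and 15 the lowest of the breast model, and no breast library came near the others. The mean was 41.3 ± 15.3 CPM (SD, n = 6), which is at least 1009-fold higher than in 482N1, with the lung model set at a floor of 3 reads over its 6 libraries. Against the 2 reads of the B16-F10-BrM4 libraries the ratio was 1420 (95% counting interval 393 to 11735).

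Tex13b was at 21.03, 25.3, 35.4, 31.9, 33.1 and 21.3 CPM in EO771-BrM3 libraries 14 to 19, a mean of 28.0 ± 6.29 CPM (SD, n = 6). It had no read in 482N1 libraries and 1 in the B16-F10-BrM4 libraries, in library 4. It varied least of the 4, with a coefficient of variation of 22.4% across the breast libraries, against 37.2% for Tex19.1, 40.6% for Dppa4 and 50.9% for Rhox2d. The level was at least 729-fold higher than in 482N1.

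Dppa4 was at 10.4, 12.4, 18.8, 22.2, 31.9 and 17.9 CPM in EO771-BrM3 libraries 14 to 19, and had no read in any 482N1 or B16-F10-BrM4 library. The mean of 18.9 ± 7.69 CPM (SD, n = 6) was at least 462-fold higher than in 482N1 and at least 433-fold higher than in B16-F10-BrM4. As for Tex19.1, library 18 was highest and library 14 among the lowest.

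Rhox2d was at 8.58, 9.58, 16.5, 17.98, 33.6 and 20.6 CPM in EO771-BrM3 libraries 14 to 19, and had no read in the other 12 libraries. The mean of 17.8 ± 9.06 CPM (SD, n = 6) was at least 419-fold higher than in 482N1 and at least 393-fold higher than in B16-F10-BrM4. Its spread within the breast model was the widest of the 4, with library 18 high and libraries 14 and 15 low. In the B16-F10-BrM4 and the 482N1 libraries all 4 were under the floor, which their choice required, so no fold between these models is given.

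**Figure D1:**
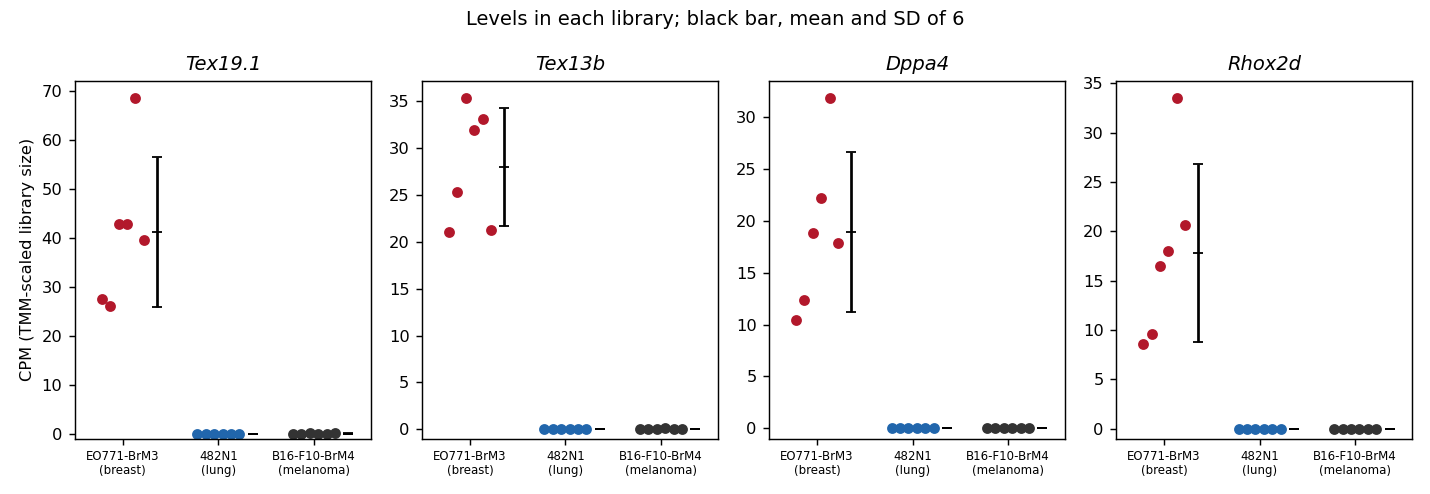
Level of each of the 4 genes in CPM on TMM-scaled library sizes (vertical axes, linear) in the 6 libraries of each model, in the order EO771-BrM3, 482N1, B16-F10-BrM4. Points are libraries in the order of their numbers and the black bars give mean and SD; every EO771-BrM3 library stands above all 12 others, and library 18 is the highest for Tex19.1, Dppa4 and Rhox2d.

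Levels between genes were compared per kilobase of annotated exon. Rhox2d averaged 26.0 ± 13.2 and Tex19.1 22.05 ± 8.20 CPM per kb in the breast libraries (SD, n = 6), with Rhox2d higher in 5 of 6 libraries. Dppa4 averaged 11.4 ± 4.62 CPM per kb and was below Tex19.1 and below Rhox2d in 6 of 6 libraries. Tex13b averaged 10.01 ± 2.24 CPM per kb and was below Tex19.1 in 6 of 6. Dppa4 and Tex13b did not separate, each being the higher one in 3 of 6 libraries.

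The genes in the same families were checked from a list of 212 germline, pluripotency and silencing genes that left out the 4. Of 211 in the table, 89 passed the filter, and 26 were higher in EO771-BrM3 against both other models by edgeR's quasi-likelihood test (Benjamini-Hochberg adjusted p under 0.05 in both contrasts). This is 29.2% of those tested, while 7.79% of all 17174 genes tested met the same rule. A gene unread in 2 models passes the filter only through the third, so the share of those tested is not independent of the direction. Of the 26, 11 lie on the X chromosome. They are 4 of the Rhox list and 7 of the X-linked germline list, both lists of X-linked genes, so no X share is read from them. Cbx5, a heterochromatin protein, was the one listed gene lower against both, as 1.74% of all genes tested were. Over all genes tested, the contrast of EO771-BrM3 with 482N1 called 18.3%, 11.2% higher and 7.16% lower, and that with B16-F10-BrM4 called 28.9%, with 9.76% lower and the others higher (4966 genes, against 8078 without B16-F10-BrM4 library 3). The contrast of B16-F10-BrM4 with 482N1 called 23.2%, 8.51% higher and 14.7% lower. The 2 breast contrasts share the breast libraries.

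In the Rhox cluster a few genes between Rhox1 and Rhox5 were read beside Rhox2d. Of 31 other Rhox genes on the list, 21 had no read in any library and 5 had at least 10 reads. Those 5 were Rhox1, Rhox2e, Rhox2g, Rhox2h and Rhox5, and of the Rhox3, Rhox4 and Rhox6 to Rhox13 genes none reached 10 reads. Rhox3a2 and Rhox4a2, which were not on the list, also had no read. Rhox5, the founding member of the family, was at 64.4, 72.0, 122, 111, 201 and 129 CPM in EO771-BrM3 libraries 14 to 19, against 12 reads in all 482N1 libraries and 12 in all B16-F10-BrM4 libraries. Its log2 fold change was 9.48 ± 0.54 (SE) against 482N1 and 9.38 ± 0.54 against B16-F10-BrM4 (edgeR quasi-likelihood adjusted p = 2.40e-10 and 2.79e-10). Rhox5 passed the filter only through EO771-BrM3, so these p-values are descriptions, not independent of the direction. Per kilobase it stood at 155 ± 65.1 CPM, above Rhox2d in 6 of 6 libraries, though the reads of Rhox2d could be split among copies.

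Rhox1 had 909 reads in the EO771-BrM3 libraries and none in the other 12, from 8.76 CPM in library 15 to 27.3 CPM in library 18. The Rhox2 copies were read unevenly. Of 2307 reads of Rhox2a to Rhox2h in the breast libraries, Rhox2d took 46.7%, Rhox2h 37.1%, Rhox2g 14.5% and Rhox2e 1.60%, while Rhox2a had 1 read and Rhox2b, Rhox2c and Rhox2f had none. The share of Rhox2d was close to constant, at 43.9% to 48.4% in each of the 6 libraries. These copies are near-identical in part: 55.3% of the 50-base words of the Rhox2d transcript occur in no other annotated gene, 48.7% for Rhox2g, 50.2% for Rhox2h and 0% for Rhox2e (GENCODE M21). How reads that match several genes were counted is not given in the sources used here, so the split among copies is uncertain. In the RefSeq promoter windows, identity with Rhox2d was 94.4% for Rhox2g and 89.4% for Rhox2h, which were read, and 87.9% for Rhox2a, 87.5% for Rhox2c and Rhox2e and 76.4% for Rhox2b, which had 0 to 37 reads in the breast libraries.

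**Figure D2:**
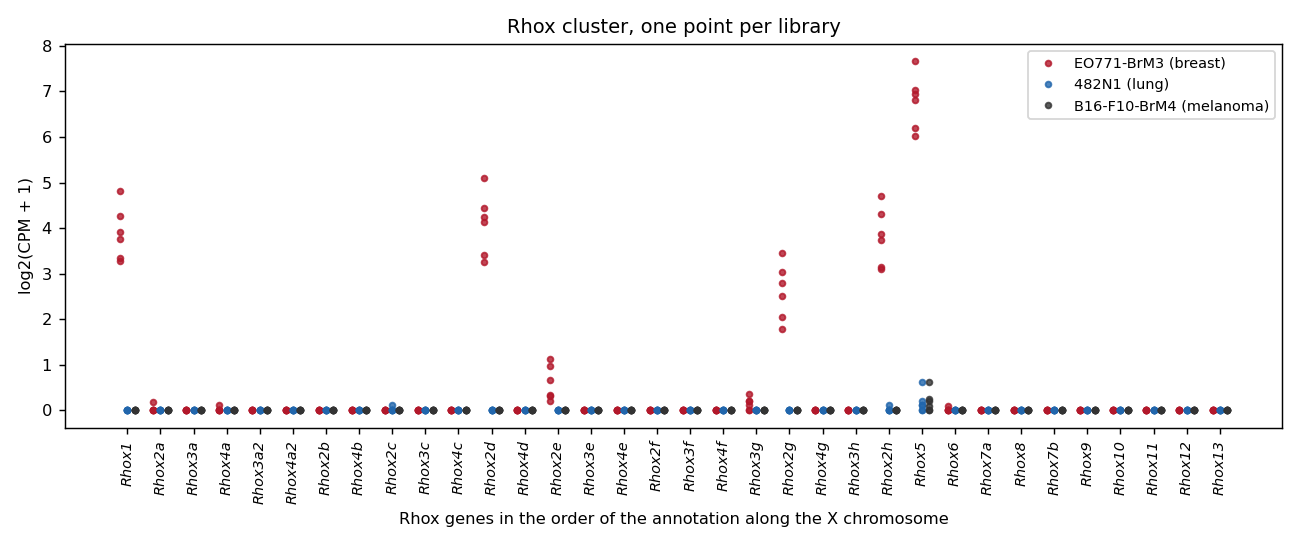
Level of each Rhox gene as log2(CPM + 1) (vertical axis), with genes in annotation order along the X chromosome and 1 point per library, coloured by model. Rhox1, Rhox2d, Rhox2g, Rhox2h and Rhox5 stand clear of 0 in all 6 EO771-BrM3 libraries and Rhox2e stays low, while the 482N1 and B16-F10-BrM4 points lie at or near 0.

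Dppa2, the partner of Dppa4 and its next protein-coding gene on chromosome 16, was read with it. It was at 3.54, 4.27, 8.76, 7.89, 11.9 and 7.64 CPM in EO771-BrM3 libraries 14 to 19, with 3 reads in 482N1 and none in B16-F10-BrM4 libraries. The ratio to 482N1 was 179 (95% counting interval 60.8 to 870), and the level was at least 168-fold higher than in B16-F10-BrM4. Dppa2 reads were 34.1% to 46.6% of Dppa4 reads in the 6 libraries. Processed copies share sequence with both genes: Gm14058, which shares 22.4% of the 50-base words of Dppa4, had 97 reads in EO771-BrM3 libraries, and Gm9788, which shares 27.1% of those of Dppa2, had 66, so the counts of the pairs could be split. Dppa3, a maternal-effect gene of pluripotent cells also called Stella, had 28 reads in EO771-BrM3, 3 in 482N1 and 2 in B16-F10-BrM4 libraries and did not pass the filter. Dppa1 had 8, 12 and 7 reads in the same order of models. In contrast to this pair, the Tex19.1 paralog Tex19.2, its neighbour on chromosome 11, had 4 reads in the breast libraries and 2 in the melanoma libraries. The Tex13b paralog Tex13c2 had 3 reads in EO771-BrM3, 17 in 482N1 and 9 in B16-F10-BrM4 libraries.

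The neighbours were then examined over 4 protein-coding genes on each side, a window chosen after the values were seen. Around Tex19.1 5 of 8 neighbours passed the filter, around Tex13b 8 of 8 and around Dppa4 5 of 8. Of all 17174 genes tested, 7.79% were higher in EO771-BrM3 against both other models. Around Dppa4, 2 of the 5 tested neighbours met this rule, Dppa2 and Morc1, a germ-cell ATPase that silences transposons in the mouse male germ line. Around Tex19.1 and Tex13b 1 neighbour each did. Dppa2 and Morc1 passed the filter only through EO771-BrM3, so the count around Dppa4 is not independent of the direction. Morc1 was at 13.5, 13.5, 20.3, 22.9, 26.3 and 16.9 CPM in EO771-BrM3 libraries 14 to 19, with 2 reads in 482N1 and 4 in B16-F10-BrM4 libraries. Nectin3, a cell adhesion gene on the other side of Dppa4, had a log2 fold change of 0.30 against 482N1 (edgeR adjusted p = 0.0422) and -0.00221 against B16-F10-BrM4 (adjusted p = 0.990). Around Tex19.1 the neighbour higher against both was Cd7, an immune receptor 4 genes away, with log2 fold changes of 0.79 against 482N1 and 1.28 against B16-F10-BrM4 (edgeR adjusted p = 0.0337 and 8.53e-04). Around Tex13b it was Prps1, a nucleotide-synthesis enzyme gene, with log2 fold changes of 0.35 and 0.43 (edgeR adjusted p = 0.0385 and 0.00635). Vsig1, a cell adhesion gene adjacent to Tex13b, was lower in EO771-BrM3, with 11 reads against 360 in 482N1 (log2 fold change -4.73 ± 0.38 (SE), edgeR adjusted p = 2.80e-08), and had 6 reads in B16-F10-BrM4 libraries (log2 fold change 0.92, adjusted p = 0.305). Mid2, on its other side, had log2 fold changes of -0.18 and -0.16 (edgeR adjusted p = 0.581 and 0.543). Of the 8 neighbours of Rhox2d, all Rhox genes, none passed the filter, and Rhox2e was the one with more than 1 read.

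**Figure D3:**
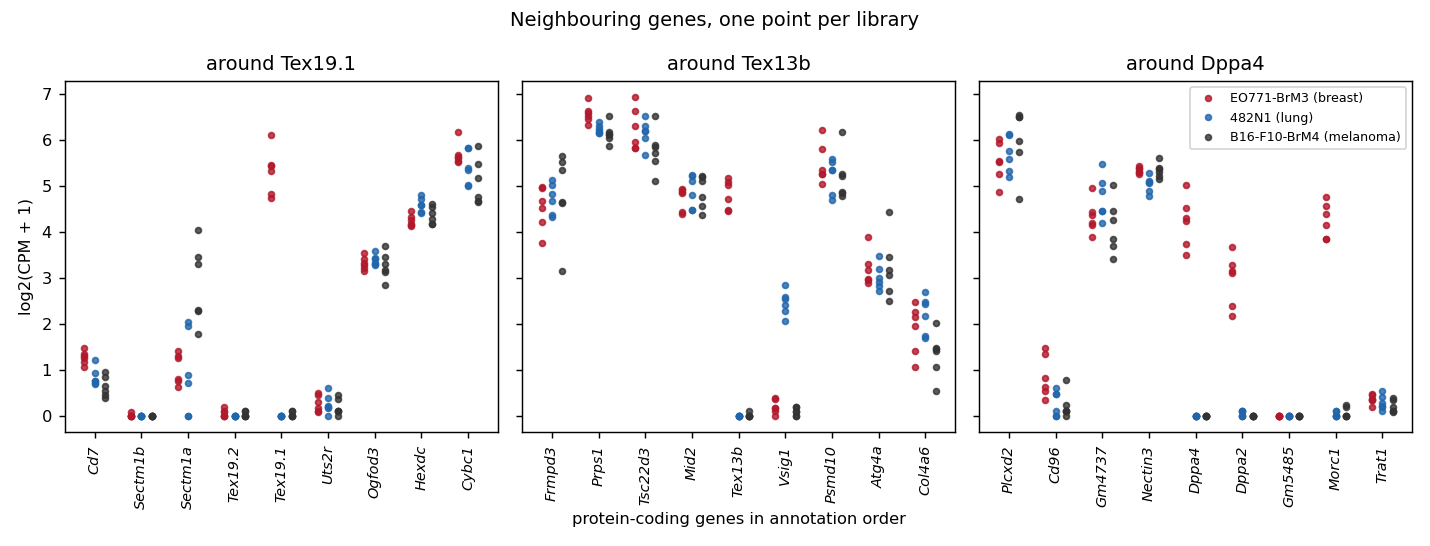
Level as log2(CPM + 1) (shared vertical axis) of the 4 protein-coding genes on each side of Tex19.1, Tex13b and Dppa4 in annotation order, 1 point per library, coloured by model. Neither gene adjacent to Tex19.1 or to Tex13b shows the step between EO771-BrM3 and the other models, whereas Dppa4, Dppa2 and Morc1 are read together in the 6 EO771-BrM3 libraries.

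Among the 40 X-linked germline genes, 9 passed the filter, and 7 of these were higher against both other models, beside 7.79% of all genes tested. In single contrasts 8 were higher and none lower against 482N1, and 7 higher and 2 lower against B16-F10-BrM4. Genes at or near 0 in the other models passed the filter only through EO771-BrM3. The share and the p-values of such genes are therefore descriptions, not independent of the direction. Tex11, an X-linked meiotic gene needed for chromosome synapsis and crossing over in male mice, was at 50.3 ± 14.1 CPM in EO771-BrM3 (SD, n = 6), against 0.472 CPM in 482N1 and 0.170 CPM in B16-F10-BrM4. Its log2 fold changes were 6.70 ± 0.37 and 8.16 ± 0.42 (SE, edgeR adjusted p = 1.30e-10 and 6.21e-11). Nxf3, of the nuclear RNA export factor family, was at 37.3 ± 12.2 CPM, with 8 and 5 reads in the 482N1 and B16-F10-BrM4 libraries. Fmr1nb, a testis and cancer-testis gene, was at 6.40 ± 2.42 CPM against 0.458 CPM in 482N1 and 0.0528 CPM in B16-F10-BrM4. These 3 had the smallest p-values of the list. Beside them, Magea3, Magea8 and Mageb4 of the MAGE cancer-testis family had 226, 997 and 815 reads in the breast libraries and none in the other 12, and Xlr, of an X-linked lymphocyte-regulated family, made up the 7. By contrast 21 of the 40 genes had under 10 reads in all libraries, 15 of them with no read.

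Of the 44 autosomal germline genes 23 passed the filter, and 8 of these were higher against both, beside 7.79% of all genes tested. Against 482N1 8 were higher and none lower, and against B16-F10-BrM4 10 were higher and 1 lower. The list's median log2 fold changes were 0.08 and 0.30, beside -0.02 and -0.04 over all genes tested. Here too, genes near 0 in the other models passed the filter only through EO771-BrM3. Their p-values and the share of the list are descriptions, not independent of the direction. Tex101, a sperm maturation protein at the germ cell surface, was at 14.9, 11.9, 22.4, 28.2, 39.4 and 27.2 CPM in EO771-BrM3 libraries 14 to 19 and had no read in the other 12 libraries, at least 577-fold higher than in 482N1. Sohlh2, a transcription factor of early germ cells, was at 3.06 ± 0.694 CPM with no read in 482N1 and 2 in B16-F10-BrM4 libraries. Genes of the piRNA pathway, which silences transposons in germ cells, were among the 8. Piwil4 had log2 fold changes of 3.29 ± 0.38 and 4.81 ± 0.45 against 482N1 and B16-F10-BrM4 (SE, edgeR adjusted p = 2.81e-06 and 9.99e-08), and Mov10l1, a piRNA-pathway helicase, of 4.16 ± 0.46 and 5.53 ± 0.56 (adjusted p = 1.84e-06 and 3.08e-07). Piwil2 and Tdrd1 of the same pathway, the synaptonemal complex gene Sycp3 and the histone-methylation reader Zcwpw1 made up the rest. The Zcwpw1 call against 482N1 (log2 fold change 0.42, edgeR adjusted p = 0.0440) was lost with DESeq2 size factors (adjusted p = 0.0502), with no filter (0.106), without EO771-BrM3 18 and 19 and B16-F10-BrM4 3 together (0.131) and on leaving out any 1 of EO771-BrM3 14, 15, 17, 18 or 19, 482N1 8, 9, 10 or 11 or B16-F10-BrM4 2, 3, 5 or 6 (0.0534 to 0.153). Sohlh2, Mov10l1 and Piwil4 had the smallest p-values.

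The germ cell markers Ddx4 and Dazl did not pass the test in either breast contrast. Dazl, a germ-cell RNA-binding protein, was at 2.41 ± 0.907 CPM in EO771-BrM3 (SD, n = 6), against 2.47 CPM in 482N1 and 2.50 CPM in B16-F10-BrM4 (edgeR adjusted p = 0.869 and 0.802). Ddx4, the germ-cell helicase Vasa, was at 1.62 ± 0.701 CPM in EO771-BrM3, against 1.76 CPM in 482N1 and 2.06 CPM in B16-F10-BrM4 (edgeR adjusted p = 0.736 and 0.286). Of 11 germ cell markers 5 passed the filter, and 2 of these were higher against both, Sycp3 and Zp3, beside 7.79% of all genes tested. Zp3 passed the filter only through EO771-BrM3, so this share is not independent of the direction. Prm1, a sperm protamine, had 16 reads in EO771-BrM3, 22 in 482N1 and 4 in B16-F10-BrM4 libraries. Zp3, an egg coat glycoprotein, was at 9.46 ± 2.97 CPM in EO771-BrM3 libraries, with 2 reads in 482N1 and 6 in B16-F10-BrM4 libraries. The summed level of the germ cell list was 12.5 to 23.1 CPM in EO771-BrM3 libraries, 5.23 to 7.75 CPM in 482N1 libraries and 4.60 to 7.53 CPM in B16-F10-BrM4 libraries.

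The core factors of the network that maintains pluripotent cells were at or near 0 in the breast libraries, unlike Dppa4 and Dppa2. Pou5f1, the gene of the core factor OCT4, had no read in EO771-BrM3 or B16-F10-BrM4 libraries and 1 in 482N1, which allows up to 3 reads over the breast libraries. Nanog had 10 reads in EO771-BrM3, 24 in 482N1 and 6 in B16-F10-BrM4 libraries. Zfp42, the pluripotency marker Rex1, had 2 reads in the breast libraries and none elsewhere. Sox2 was listed at 0 in all 18 libraries although it is a gene of brain progenitors. It lies inside Sox2ot on the same strand in the annotation, and mt-Atp6 and mt-Atp8, which overlap each other, were also listed at 0, so no level is read from its 0.

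Of the 32 pluripotency network genes 15 passed the filter. Of these, 4 were higher against both, Dnmt3l, Zfp296, Klf2 and Myc, beside 7.79% of all genes tested. Against 482N1 6 were higher and 3 lower, and against B16-F10-BrM4 8 were higher and none lower. Because Dnmt3l passed the filter only through EO771-BrM3, its p-values and the share of the list are not independent of the direction. Dnmt3l, the catalytically inactive cofactor of de novo DNA methylation in germ cells, was at 5.64 ± 2.53 CPM in EO771-BrM3, against 0.254 CPM in 482N1 and 0.116 CPM in B16-F10-BrM4 (log2 fold changes 4.38 ± 0.45 and 5.53 ± 0.52 (SE), edgeR adjusted p = 6.46e-07 and 1.09e-07). Aire, which overlaps it on the other strand, had 12 reads in EO771-BrM3, 2 in 482N1 and 378 in B16-F10-BrM4 libraries. Zfp296, a zinc finger gene, had log2 fold changes of 2.13 ± 0.29 and 2.49 ± 0.30 (edgeR adjusted p = 2.00e-05 and 2.35e-06). Klf2, which endothelial and immune cells also express, had log2 fold changes of 1.26 ± 0.19 and 2.31 ± 0.19 (edgeR adjusted p = 5.26e-05 and 3.31e-08). No gene of the 18 on the 2-cell stage list, which includes targets that Dppa2 and Dppa4 activate through Dux in mouse embryonic stem cells, reached 10 reads in all libraries.

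The machinery that methylates DNA and silences germline genes was read in all 3 models. Of 37 such genes, all tested, 2 were higher against both, a smaller share than the 7.79% of all genes tested. They were Mbd2 (log2 fold changes 0.43 and 0.48, edgeR adjusted p = 0.0148 and 0.00375), a reader of methylated DNA, and Morc2a (0.32 and 0.35, edgeR adjusted p = 0.0362 and 0.0158), a chromatin ATPase. Cbx5 was lower against both (-0.57 and -0.66, edgeR adjusted p = 0.00159 and 2.13e-04). The list's median log2 fold change was 0.11 against 482N1 and -0.08 against B16-F10-BrM4, beside -0.02 and -0.04 over all genes tested. The Morc2a call against 482N1 was lost with library totals in place of TMM (edgeR adjusted p = 0.0614) and on leaving out any 1 of EO771-BrM3 14, 16, 17 or 18, 482N1 7, 10, 11 or 13 or B16-F10-BrM4 5 or 6 (0.0570 to 0.106), and that against B16-F10-BrM4 without B16-F10-BrM4 5 or 6 (0.0615 and 0.0560). With no filter neither held (0.101 and 0.102). Mbd2 lost its call against 482N1 without EO771-BrM3 18 (0.0546) or without 482N1 11 (0.0614).

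**Figure D4:**
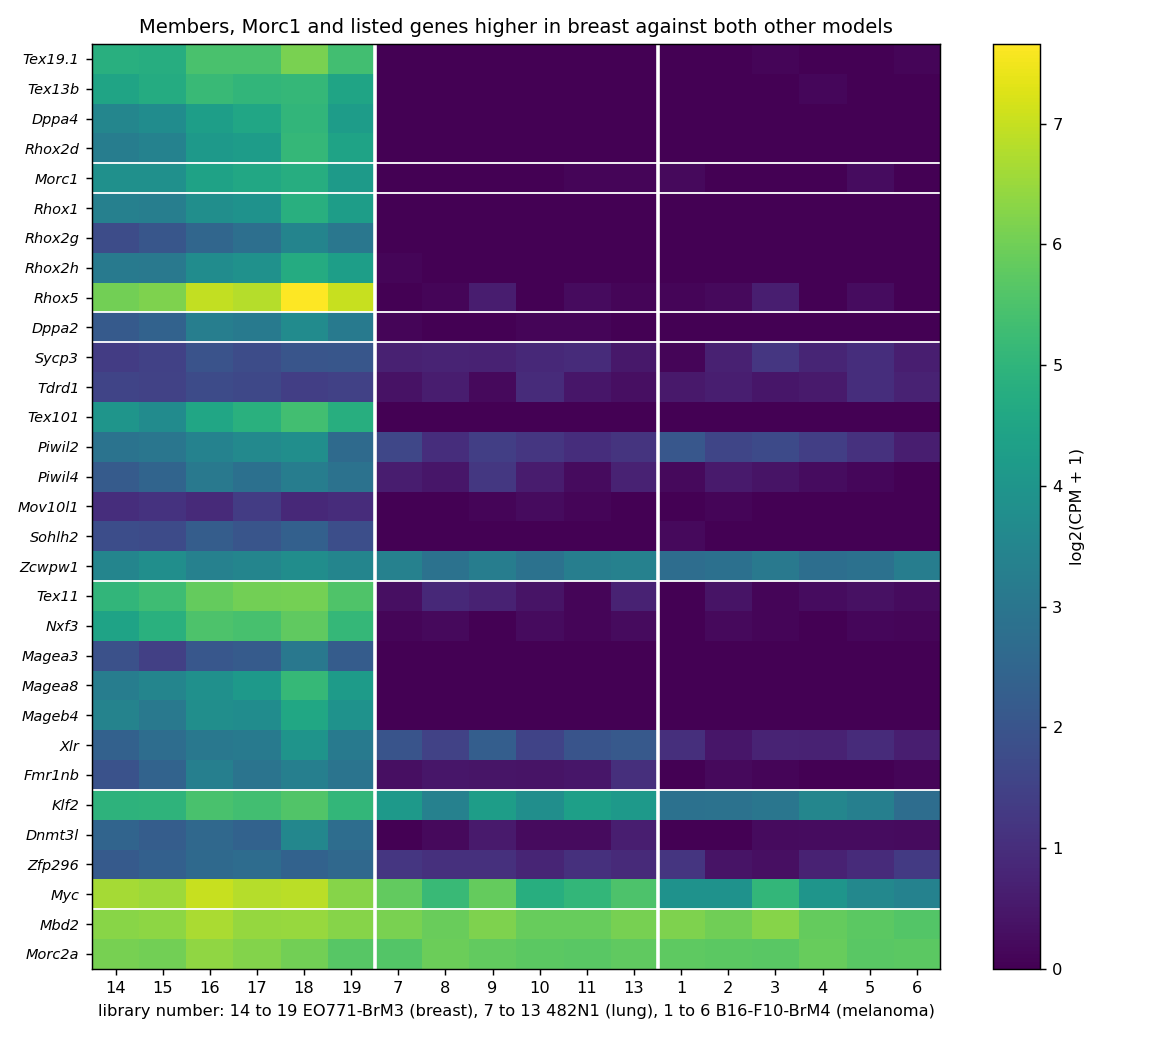
Level as log2(CPM + 1) (colour) of the 4 genes, Morc1 and the 26 listed genes higher in EO771-BrM3 against both other models (lines of the map), in 18 libraries (columns, by number within model). The 4 genes, the Rhox genes, Tex101, Tex11, Nxf3 and the MAGE genes are dark in all 482N1 and B16-F10-BrM4 columns, whereas Myc, Mbd2, Morc2a, Klf2 and Zcwpw1 are read in every column.

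The genes with the most similar pattern over all 18 libraries were found by Pearson's r of log2(CPM + 1) among 16216 genes with a breast mean of at least 1 CPM. Such r values mostly express the step between the breast model and the rest, and they share library depth, so they are descriptions with no p. Closest to Tex19.1 were Gm364 (r = 0.9996), Nlrp4c (0.999) and 4930550L24Rik (0.999). Closest to Tex13b were C330024D21Rik (0.999), Pnma5 (0.998) and the homeobox gene Hoxd9 (0.998). Closest to Dppa4 were Nlrp4c (0.999), 4930550L24Rik (0.999) and the zinc finger gene Zfp985 (0.999). Closest to Rhox2d were Rhox2h (0.999), Magea8 (0.999) and Rhox1 (0.999). Gm364 had 6250 reads in EO771-BrM3 libraries, 1 in 482N1 and 2 in B16-F10-BrM4. Nlrp4c, a gene of an oocyte-expressed family, had 2179, 4 and 1. Among all genes counted, 8 had at least 1000 reads in the breast libraries and at most 3 in the other 12, limits chosen after the values were seen. They were the 4 genes, Gm364, 4930550L24Rik, Tex101 and Mmp1a, the last an interstitial collagenase gene.

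Within the breast model Tex19.1, Dppa4 and Rhox2d varied in step, which the choice of the genes did not use. The summed level of all 4 genes was 67.6, 73.3, 114, 115, 167 and 99.4 CPM in EO771-BrM3 libraries 14 to 19. Tex19.1 with Dppa4 gave Pearson's r = 0.971 over the 6 libraries (exact permutation p = 0.00833, adjusted 0.0292 over 7 relations), Spearman's rho = 0.886 (exact p = 0.0333, adjusted 0.136), and r = 0.976 without the 2 libraries farthest from the median. Dppa4 with Rhox2d gave r = 0.963 (exact permutation p = 0.00833, adjusted 0.0292), rho = 0.829 (exact p = 0.0583, adjusted 0.136) and r = 0.854 without the 2 farthest. Tex19.1 with Rhox2d gave r = 0.966 (exact permutation p = 0.0167, adjusted 0.0340), rho = 0.714 (exact p = 0.136, adjusted 0.159) and r = 0.915 without the 2 farthest. No rank correlation passed after adjustment.

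The 3 relations of Tex13b did not pass, with r = 0.657 to Tex19.1, 0.706 to Dppa4 and 0.528 to Rhox2d (exact permutation p = 0.167, 0.132 and 0.283, n = 6; adjusted 0.194, 0.185 and 0.283). Their rank correlations were 0.771, 0.771 and 0.429 (exact permutation p = 0.103, 0.103 and 0.419, adjusted 0.144, 0.144 and 0.419), and r without the 2 farthest libraries was 0.720, 0.712 and 0.698. Without libraries 18 and 19 the 3 relations of Tex13b had r = 0.900, 0.921 and 0.940 over 4 libraries. Libraries 18 and 19 were the shallowest, with 7366250 and 7432159 counts, and the poorest in long transcripts of the breast model. The slope of log2 level on log2 exon length was -0.207 and -0.168 there, against -0.00690 to 0.0575 in libraries 14 to 17. Tex13b is the longest of the 4 by annotated exon (2800 bases) and took 19.8% and 21.4% of the reads of the 4 genes in libraries 18 and 19, against 27.8% to 34.5% in libraries 14 to 17. Rhox2d is the shortest (685 bases) and took 20.1% and 20.7%, against 12.7% to 15.6%. The part of transcript length in these shares was not tested.

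Other measures of the breast libraries moved with the 4 genes. The mean of their log2 levels and that of 22 cell cycle genes gave r = 0.858 (exact permutation p = 0.0194, adjusted 0.0340), rho = 0.829 (exact p = 0.0583, adjusted 0.136, n = 6), r = 0.828 without the 2 libraries farthest from the median, and r = 0.967 over the 4 libraries other than 18 and 19. Krt8, a simple-epithelial keratin, was at 58.7, 62.7, 99.3, 119, 161 and 101 CPM in EO771-BrM3 libraries 14 to 19, so the order of the libraries was close to that of the 4 genes. The summed level of 6 neuron markers ran the other way, with 4090, 4131, 3583, 3564, 2480 and 3392 CPM. The part of tumour content in these levels was not tested. Over the 6 breast libraries the genes closest to the mean of the 4 were Rad18, a DNA repair ubiquitin ligase (r = 0.999), Twf1, an actin-binding protein (0.998), and Renbp, a renin-binding protein (0.998), chosen from 16213 genes. Unlike the 4, these were read in all models, Rad18 with 1964 reads in EO771-BrM3, 1344 in 482N1 and 2063 in B16-F10-BrM4 libraries.

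**Figure D5:**
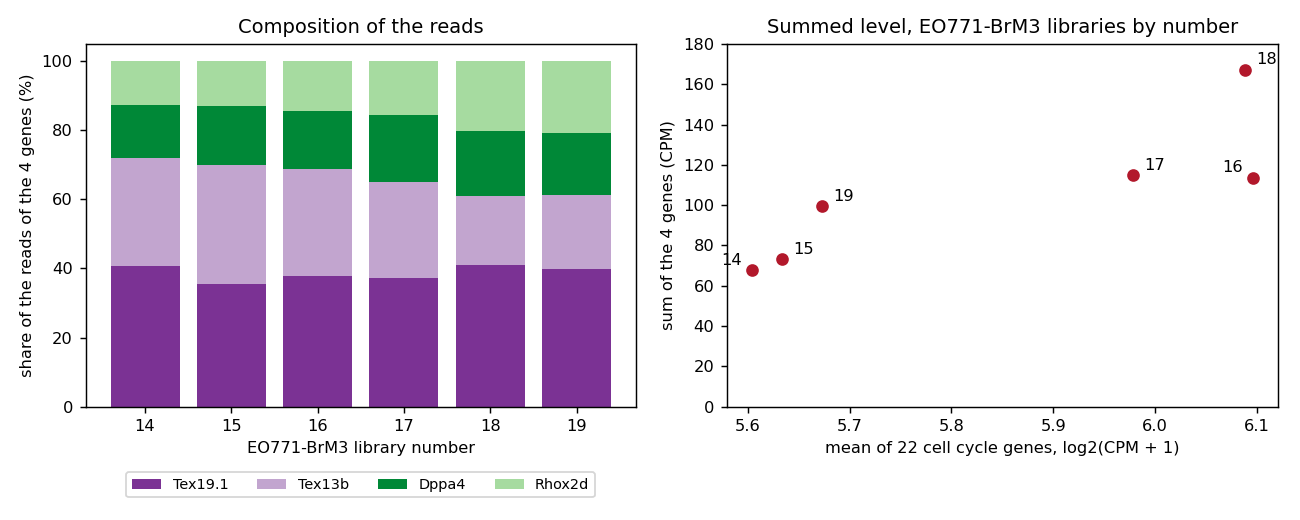
Left, share of the reads of the 4 genes taken by each gene in EO771-BrM3 libraries 14 to 19 (stacked bars, percent). Right, summed level of the 4 genes in CPM against the mean of 22 cell cycle genes as log2(CPM + 1), 1 numbered point per library. The share of Tex13b is highest in library 15 at 34.5% and lowest in library 18 at 19.8%, and library 18 has the highest sum at 167 CPM.

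Brain markers were read in all models. The neuron marker Snap25 was at 1230.5 to 1632 CPM in EO771-BrM3 libraries, 1504 to 2014 in 482N1 and 1419 to 2492 in B16-F10-BrM4 libraries, and Syt1 at 349 to 838, 536 to 1128 and 387 to 1347 CPM in the same order. The myelin gene Mbp was at 1555 to 3675 CPM in EO771-BrM3, 1738 to 3179 in 482N1 and 1811 to 2534 in B16-F10-BrM4 libraries. Gfap and Aldoc of astrocytes were at 1657 to 1915 and 666 to 1362 CPM in EO771-BrM3 libraries, and Csf1r of microglia at 116 to 358 CPM. Gfap was at 1494 to 3009 CPM in 482N1 and 276 to 449.6 in B16-F10-BrM4 libraries. Of the epithelial and mammary markers, Krt8 was at 58.7 to 161 CPM in EO771-BrM3, 98.3 to 484 in 482N1 and 0.470 to 1.40 in B16-F10-BrM4 libraries. Krt18, its usual partner, was at 0.946 to 3.52, 113 to 589 and 1.30 to 2.81 CPM in the same order. Summed, the 25 epithelial and mammary markers were at 106 to 195 CPM in EO771-BrM3, 372 to 1365 in 482N1 and 22.3 to 44.5 in B16-F10-BrM4 libraries. Of the 13 trophoblast markers, for tissue that also expresses Tex19.1 and Rhox genes, 2 passed the filter. None of these was higher in EO771-BrM3 against both, and 2 genes are too few to compare with the 7.79% of all genes tested. The 13 markers summed to 1.68 to 2.77, 3.13 to 8.27 and 1.02 to 6.03 CPM in the same order of models. Among them, Eomes was at 0.789 to 1.95 CPM in EO771-BrM3 libraries, and Cdx2 had no read there or in B16-F10-BrM4 libraries but 183 in 482N1 libraries. Melanocyte markers, led by Dct and Tyrp1, summed to 14.1 to 21.7 CPM in EO771-BrM3, 10.96 to 12.9 in 482N1 and 3904 to 24214 in B16-F10-BrM4 libraries. Totals were 7366250 to 13544054 counts in EO771-BrM3, 12070005 to 14533877 in 482N1 and 10669355 to 13396710 in B16-F10-BrM4 libraries.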

How the data were processed

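RNA of 18 brain samples was poly(A)-selected for directional libraries, per the labels' protocols. GRCm39 and bcl2fastq are named, per the submitters' processing notes. Not given in the sources used here are the aligner, the counter with its strand setting, and the annotation. As deposited, the counts are whole numbers per versioned Ensembl gene, not normalized. The deposited CPM table holds 16925 genes under upper-case symbols. Whole reads were recovered from 100% of its values (tolerance 0.01) and served as an alternative.

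Symbols, exon lengths and gene order came from GENCODE M21 by gene ID (52083 of 55416 IDs, 99.8% of reads). One edgeR 4.0.16 model (R 4.3.3; robust quasi-likelihood, TMM, filterByExpr, 17174 genes) covered all libraries, with a coefficient for each tumour line. P-values were adjusted over the 17174 genes by Benjamini and Hochberg's method, and calls were made under 0.05. The model was tested on simulated data. Each SE beside a log2 fold change is its absolute value divided by the square root of the quasi-likelihood F. It is approximate, not a separately fitted error. DESeq2 1.42.0, other scalings and filters, and left-out libraries were alternatives. Libraries of a line differed by more than sampling noise (chi-square per degree of freedom at least 2.82).

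The 4 genes and the lists were chosen with earlier results of these data known. Named were the 4 genes, paralogs and Rhox genes with at least 10 reads, the 3 smallest larger p-values per list among genes called alike in both breast contrasts, the 2 markers per cell type with most reads (some are not reported here), and the genes most similar in pattern. Other genes were named after their values were seen. The series design gives 6 brains per model, and no batch is labelled.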

Additional observations from a re-analysis of the deposited data

Results flagged for a closer look

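In 54 sets of 6 libraries with at least 30 reads, covering 34 genes, 7 had 1 library far from the other 5 by Dixon's test at the 95% level. Chance gives about 1 in 20 such sets, but the sets share libraries and are not independent. EO771-BrM3 library 18 was the high one for Magea3 (7.41 CPM against 1.72 to 3.69 in the other 5), Magea8 (33.8 against 8.58 to 17.5), Xlr (14.5 against 4.25 to 7.92) and Dnmt3l (10.6 against 3.74 to 5.73). That library had the fewest counts of all (7366250) and was the poorest in long transcripts of the breast model. In 482N1, Fmr1nb was at 1.06 CPM in library 13 against 0.232 to 0.391. In B16-F10-BrM4, Myc was at 32.3 CPM in library 3 against 9.58 to 15.1, and Morc2a at 58.4 CPM in library 4 against 50.5 to 53.3. None of the 4 genes themselves had such a library.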

How the results depend on the processing

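No paired analysis was possible because each library number belongs to 1 library and pairs nothing. Mean levels of the 4 genes in EO771-BrM3 moved by less than 1 SD under every scaling and left-out library tried. With 1 library left out they ranged from 35.0 to 44.3 CPM for Tex19.1, 26.3 to 29.4 for Tex13b, 15.9 to 20.6 for Dppa4 and 14.4 to 19.6 for Rhox2d. The deposited CPM table gave 27.7 CPM for Tex13b and 18.7 for Dppa4. That alternative gave no value for the other two. Of the listed genes, 26 were higher against both models, 24 to 27 with 1 library left out, 25 with DESeq2 size factors, 25 with library totals, 32 with no filter, 25 with 1 CPM in 6 libraries, 27 with the DESeq2 test and 28 without the 3 libraries poor in long transcripts (B16-F10-BrM4 3, EO771-BrM3 18 and 19).

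Counts of called genes ranged, with 1 library left out, from 2575 to 4113 (3149 with all) for EO771-BrM3 against 482N1, 4520 to 8078 (4966) for EO771-BrM3 against B16-F10-BrM4, 3495 to 4623 (3978) for B16-F10-BrM4 against 482N1, and 984 to 1647 (1338) for higher against both. The 8078 came without B16-F10-BrM4 library 3, and its cause was not tested. Reads recovered from the CPM table, chosen after seeing the data, gave 2719, 4448, 3469 and 991 calls in the same order, over fewer genes. For 27 named genes in 2 contrasts, 1261 of 1294 alternative values kept their side of the threshold, none changed direction, and the 33 that lost the call were of Zcwpw1, Morc2a and Mbd2. Against 482N1, Zcwpw1 had an adjusted p of 0.131 without the 3 libraries poor in long transcripts. Depth limits the unread models to a floor of 3 reads.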

Other observations

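The deposited CPM table carries a gene named TEX19 whose recovered reads equal those of Tex19.2 in all 18 libraries, 4 reads in EO771-BrM3. Tex19.1, with 2596 reads in EO771-BrM3 libraries in the count table, has no entry there under its own name. The deposited CPM of TEX19 averages 0.0511 in EO771-BrM3, where the counts give Tex19.1 a mean of 41.3 CPM. RHOXF1 was at 0 in all EO771-BrM3 libraries. Its reads equal those of 24227 genes of the count table, so which mouse gene it holds is not known. The mouse Rhox5 of the count table had 7204 reads in the EO771-BrM3 libraries. TEX13B, DPPA4 and DPPA2 hold the reads of Tex13b, Dppa4 and Dppa2.

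Of the 1336 genes with a known chromosome that were higher in EO771-BrM3 against both other models, 6.21% lie on the X chromosome, beside 3.73% of all genes tested. This share was computed after the germline lists had been seen and was not tested. Neither the 4 genes nor the 11 listed X-linked genes higher against both were left out, so the share is not separate from their choice.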
